A study of Homo sapiens with 6 samples.

Results

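The enzymes described here carry out glucose breakdown, the pentose phosphate pathway, glycogen turnover and the entry of pyruvate into mitochondria. They were chosen by gene symbol, not by their measured values: 44 symbols were listed, and 40 of them have a row among the 12396 named genes of the deposited table. HK1, FBP1, PKLR and PCK1 are not analysed here. JHH-4 is a human hepatocellular carcinoma line with epithelial-like cells, grown in a minimal essential medium with fetal bovine serum. RNA was sequenced from 3 libraries of control JHH-4 cells, labelled WT, and from 3 libraries of the same line in which hsa-miR-372-3p was overexpressed by means of a plasmid with the primary transcript. The level of the mature microRNA in the cells is not analysed here. The study title concerns fatty acid metabolism and its genes CPT1A and ACSL4, and the comparison of control with miR-372-3p is the only one the design holds. The labels do not say what plasmid, if any, the control cells received. All 6 libraries come from 1 cell line, and the series calls the 3 of each group technical replicates, so every p-value below measures the spread between these libraries and not between separate experiments.

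Glycolysis splits glucose into pyruvate with a small net yield of ATP, and the pyruvate is reduced to lactate or oxidised by the pyruvate dehydrogenase complex in mitochondria. The pentose phosphate pathway leaves glycolysis at glucose phosphate, yields NADPH and ribose phosphate, and returns carbon to glycolysis through transketolase and transaldolase. Hepatocytes also store glucose as glycogen, and liver tumours commonly replace liver isozymes of these pathways with isozymes found in other tissues. A microRNA represses transcripts that pair with its seed, bases 2 to 8 from its 5′ end, mostly through sites in the 3′ untranslated region (UTR).

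The mature microRNA, in the RefSeq annotation of GRCh38.p14 at chr19:53787931-53787953 on the plus strand, has 23 bases. It is shown first because the members were searched for its seed, which is in capitals:

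hsa-miR-372-3p: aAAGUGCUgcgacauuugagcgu

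Full seed matches of 7 bases were the strongest class found among the members. They were found in the 3′ UTRs of 4 members, LDHA, PFKFB2, PFKFB3 and PFKP. Those shown are in PFKFB2 (chr1:207075084-207075090), PFKFB3 (chr10:6233882-6233888) and PFKP (chr10:3136651-3136657), in GENCODE 29 on GRCh38, all on the plus strand. The 30 bases that end 1 base past the match are given for these 3 members so that the matches can be compared, with the match in capitals:

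PFKFB2: gacctaatgaatgagaagagggAGCACTTt
PFKFB3: ggaacacctggcatccttccccAGCACTTg
PFKP: gtaacacttaagttattttatcAGCACTTt

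None of the 3 matches shown is followed by an A, as an 8mer (AGCACTTA) would be. No member's 3′ UTR held an 8mer, against 4.05% of the 12192 genes searched, and the 7mer that pairs with the whole seed (AGCACTT) was found in 4 of 40 members (10%) against 21.5% of genes. A 7mer of the other kind (GCACTTA) was found in 0 of 40 members, which is set beside 3.63% of genes, and 4 members, ENO2, GPI, GYS1 and PDK1, held only the 6-base match (GCACTT). The remaining 32 members (80%) held no match, against 59.4% of genes. Of the 4 members with a full seed match, PFKFB3 and PFKP rose, LDHA fell and PFKFB2 did not pass the test. Of the 32 members without a match, 16 fell and 6 rose. Among all genes searched, 29.7% of those with the full seed match as their best match fell and 27.2% rose. Of genes with an 8mer, the class that no member held, 44.7% fell and 21.05% rose. With GCACTTA as the best match 31.45% fell and 26.5% rose, and with only the 6-base match 26.85% fell and 30.4% rose. Of all genes without a match, 26.2% fell and 26.7% rose. A match is a run of letters, not a measured site, and the binding of the microRNA was not measured.

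The named genes held 46851245 to 47890069 counts in the control libraries and 51072581 to 60070397 in the miR-372-3p libraries, and no gene was removed by the filter on low counts. The main axis of variation between libraries (principal component 1, 72.5%) separated the groups. On principal component 2 (10.2%) control 3 stood at −22.0, against 14.5 and 7.27 for the other controls, so each result was also computed without each library in turn. Of the hepatocyte markers, 6 of 13 had a row, with a summed level of 88.5 to 97.5 CPM (counts scaled to 1000000 per library with edgeR's TMM factors) in control and 84.1 to 86.7 CPM with miR-372-3p. SERPINA1 fell (log2 fold change −2.35) and FGA and FGB rose (1.05 and 0.80), and ALB, AFP and HNF4A are not analysed here. The epithelial keratins KRT8, KRT18 and KRT19 were high, with a summed level of 3382 to 3490 CPM in control and 6248 to 6495 CPM with miR-372-3p. Of 8 markers of blood, endothelial and stromal cells, COL1A1 and PDGFRB had a row and rose (log2 fold changes 3.72 and 1.16), and their summed level was 12.9 to 15.4 CPM in control and 81.2 to 88.2 CPM with miR-372-3p. The part of these marker changes in the results below was not tested, and in bulk RNA fewer cells of a type and less RNA per cell cannot be told apart.

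More of the 40 enzymes were lower than higher in miR-372-3p cells. At an adjusted p under 0.05 in edgeR's quasi-likelihood test (Benjamini-Hochberg adjustment over all 12396 genes), 20 of 40 fell (50%), 8 rose (20%) and 12 did not pass. Among all genes tested, 27.7% fell, 26.8% rose and 54.5% passed in either direction. The changes were small: log2 fold changes ran from −0.94 to 0.40, none reached 2-fold, and only PDK3 and PFKFB4 passed 1.5-fold. The members' median log2 fold change was −0.12, and that of all genes was 0.0013. In 29 of 40 members (72.5%) the 3 libraries of one group all lay above the 3 of the other, 20 lower and 9 higher with miR-372-3p, against 62.2% of all genes.

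Read as a share of the transcript pool, the 40 enzymes together took 2.58, 2.56 and 2.63% of the counts in the control libraries and 2.24, 2.22 and 2.2% in the miR-372-3p libraries. The groups did not overlap. Much of that share is GAPDH, which went from 0.735% ± 0.0250 in control to 0.566% ± 0.0113 with miR-372-3p, but without GAPDH the other 39 members still went from 1.86% ± 0.0645 in control to 1.66% ± 0.0159 with miR-372-3p. The fall lay mostly in the glycolytic steps: the 6 enzymes of lower glycolysis went from 1.62% ± 0.00778 in control to 1.35% ± 0.0163 with miR-372-3p, and the 10 genes of upper glycolysis from 0.407% ± 0.0109 in control to 0.339% ± 0.00583 with miR-372-3p. The pentose phosphate genes went from 0.154% ± 0.00133 in control to 0.123% ± 0.00186 with miR-372-3p. The summed share of the 7 glycogen enzymes did not follow, going from 0.107% ± 0.00120 in control to 0.111% ± 0.000694 with miR-372-3p. Much of that share is PYGB, which rose from 517 ± 14.6 to 604 ± 11.5 CPM. By gene, 3 of the 7 rose (PYGB, PYGL and PGM2) and 3 fell (GYS1, PGM1 and GBE1). No test was run on these sums. The plot of log2 fold changes by branch shows each enzyme beside the others of its branch.

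**Figure D1:**
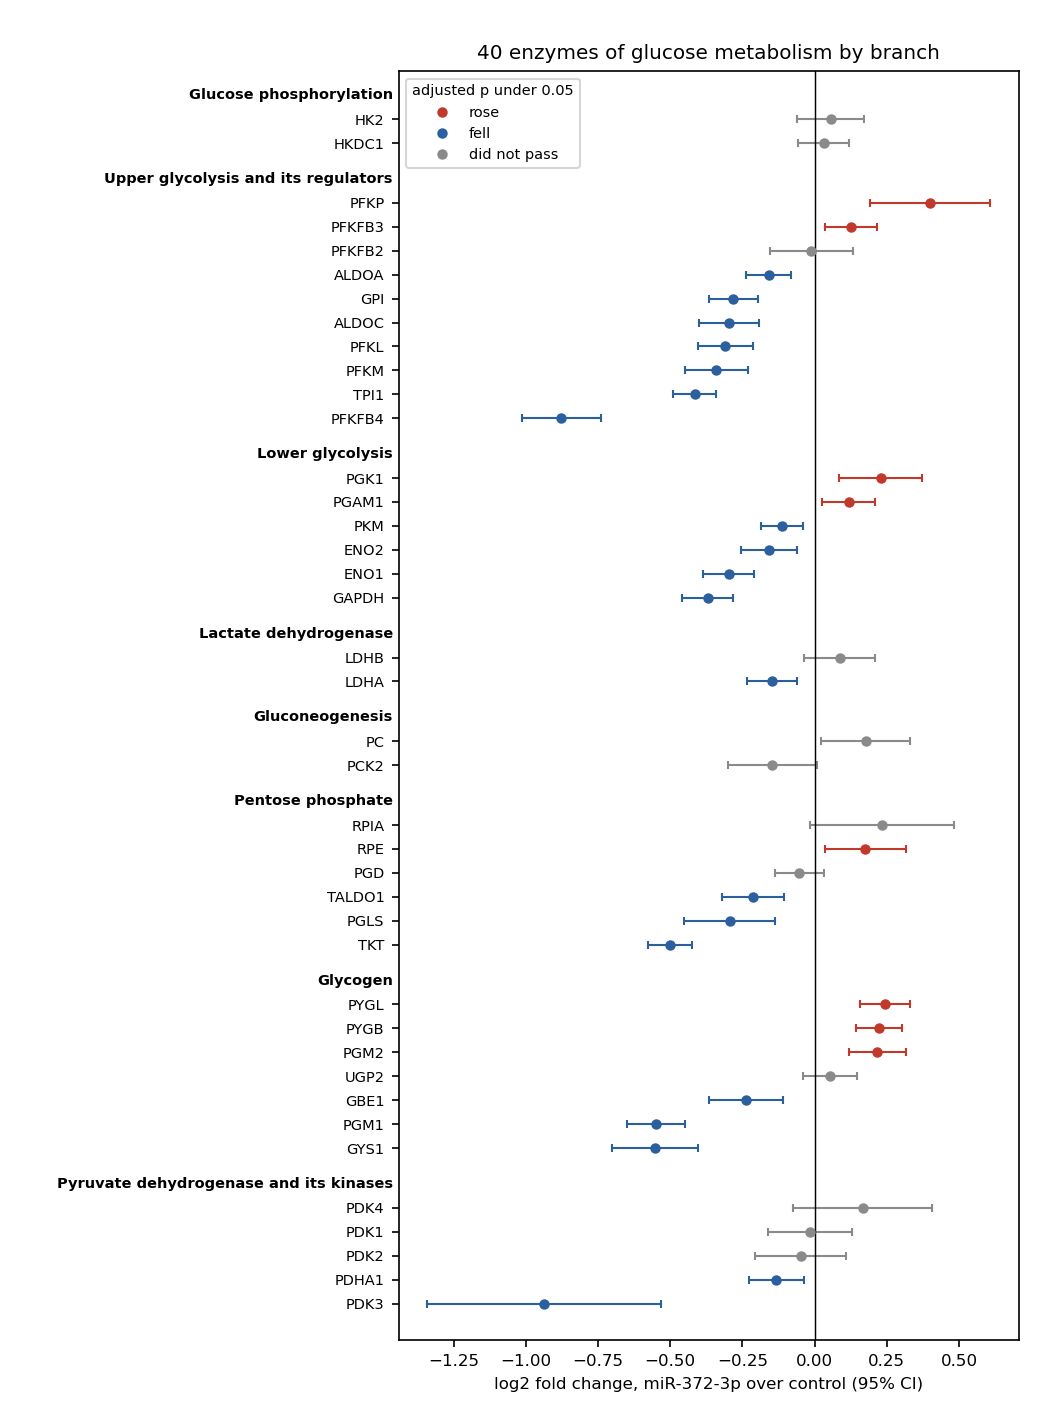
Log2 fold change of each of the 40 enzymes, miR-372-3p over control, with the 95% confidence interval of the edgeR fit on 3 libraries a group, grouped by pathway branch. Red points rose, blue points fell and grey points did not pass an adjusted p of 0.05; PDK3 and PFKFB4 lie lowest, at −0.94 and −0.88, and PFKP highest, at 0.40.

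At glucose phosphorylation, the first step, neither of the members measured, HKDC1 and HK2, passed the test, and HK1 is not analysed here. HKDC1, a hexokinase family member that supplied most of the measured hexokinase transcript, stood at 187, 179 and 193 CPM in the control libraries and 191, 192 and 188 CPM in the miR-372-3p libraries, on 8766, 8328 and 9393 reads in control and 11479, 9691 and 10534 with miR-372-3p. These values overlapped, and the difference was 0.03 on the log2 scale with a 95% interval of −0.06 to 0.12 (edgeR adjusted p = 0.524). HK2, the hexokinase most often raised in tumours, went from 41.5 ± 2.18 to 43.1 ± 1.28 CPM and did not pass (log2 fold change 0.06 ± 0.0516, edgeR adjusted p = 0.389).

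Of the 10 genes between glucose phosphate and triose phosphate, 7 fell and 2 rose. Phosphofructokinase (PFK), which commits sugar to glycolysis, is made from 3 genes. Its liver form PFKL stood at 146, 143 and 142 CPM in the control libraries and 122, 115 and 112 CPM in the miR-372-3p libraries, on 6871, 6647 and 6906 reads in control and 7303, 5789 and 6249 with miR-372-3p. Every miR-372-3p library lay below every control library (log2 fold change −0.31 ± 0.0426, edgeR adjusted p = 0.000200). The muscle form PFKM fell to a like degree, from 116 ± 6.93 to 91.5 ± 1.61 CPM (log2 fold change −0.34 ± 0.0487, edgeR adjusted p = 0.000256). The platelet form PFKP (chr10:3066333-3137712) moved the other way and was the member that rose most, though from the lowest level of the 3: 9.14, 7.86 and 8.86 CPM in the control libraries and 11.8, 10.9 and 11.3 CPM in the miR-372-3p libraries, on 429, 366 and 430 reads in control and 710, 553 and 634 with miR-372-3p. It rose 1.32-fold, with a 95% interval of 0.19 to 0.61 on the log2 scale (log2 fold change 0.40 ± 0.0932, edgeR adjusted p = 0.00490).

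The bifunctional PFKFB enzymes make and break the fructose bisphosphate that activates PFK, and they split in the same branch. PFKFB4 (GRCh38 chr3:48517684-48562015) had the lowest log2 fold change among the genes of glycolysis. It stood at 59.2, 59.5 and 68.4 CPM in the control libraries and 34.5, 33.8 and 33.5 CPM in the miR-372-3p libraries, on 2778, 2771 and 3320 reads in control and 2067, 1711 and 1878 with miR-372-3p. Control 3 was the highest of the controls, and the miR-372-3p values lay close together. The fall was 1.84-fold (log2 fold change −0.88 ± 0.0615, edgeR adjusted p = 2.27e-06; 95% interval −1.01 to −0.74). PFKFB3, the form with the strongest kinase activity, stood at 206, 196 and 214 CPM in the control libraries and 225, 221 and 226 CPM in the miR-372-3p libraries, on 9663, 9110 and 10386 reads in control and 13511, 11157 and 12648 with miR-372-3p. It rose by a small amount (log2 fold change 0.13 ± 0.0405, edgeR adjusted p = 0.0235), and this call was lost without control 1, control 2, miR-372-3p 1 or miR-372-3p 3, with an edgeR adjusted p of up to 0.0793. PFKFB2 did not pass (log2 fold change −0.01 ± 0.0648, edgeR adjusted p = 0.895). An exon of PFKFB4 overlaps UCN2 on the same strand, and UCN2 fell as well (log2 fold change −0.46 ± 0.0753), and the assignment of reads between them is uncertain.

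The other upper enzymes fell. GPI, which interconverts glucose and fructose phosphate, went from 704 ± 12.7 to 579.6 ± 21.1 CPM (log2 fold change −0.28 ± 0.0376, edgeR adjusted p = 0.000166). By the deposited FPKM, which are fragment counts scaled for transcript length and library depth, the log2 ratio of the group means was smaller, −0.0993. The groups overlapped by FPKM, with 219.95, 209.6 and 230.7 in control and 194.9, 233.3 and 188.1 with miR-372-3p. There miR-372-3p 2 lay above every control library. ALDOA, the main aldolase, stood at 1494, 1480.1 and 1543 CPM in the control libraries and 1375, 1355 and 1313 CPM in the miR-372-3p libraries, on 70133, 68963 and 74932 reads in control and 82477, 68498 and 73593 with miR-372-3p. All 3 miR-372-3p libraries were lower (log2 fold change −0.16 ± 0.0343, edgeR adjusted p = 0.00308). ALDOA overlaps the gene AC093512.2 on the same strand, which fell by 0.85 ± 0.0724 on the log2 scale from 103 CPM. ALDOC, an aldolase best known from brain, fell as well (log2 fold change −0.30 ± 0.0463, edgeR adjusted p = 0.000443). TPI1, which interconverts the 2 triose phosphates, went from 1179.5 ± 24.2 to 884 ± 12.5 CPM (log2 fold change −0.42 ± 0.0328, edgeR adjusted p = 4.96e-06).

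**Figure D2:**
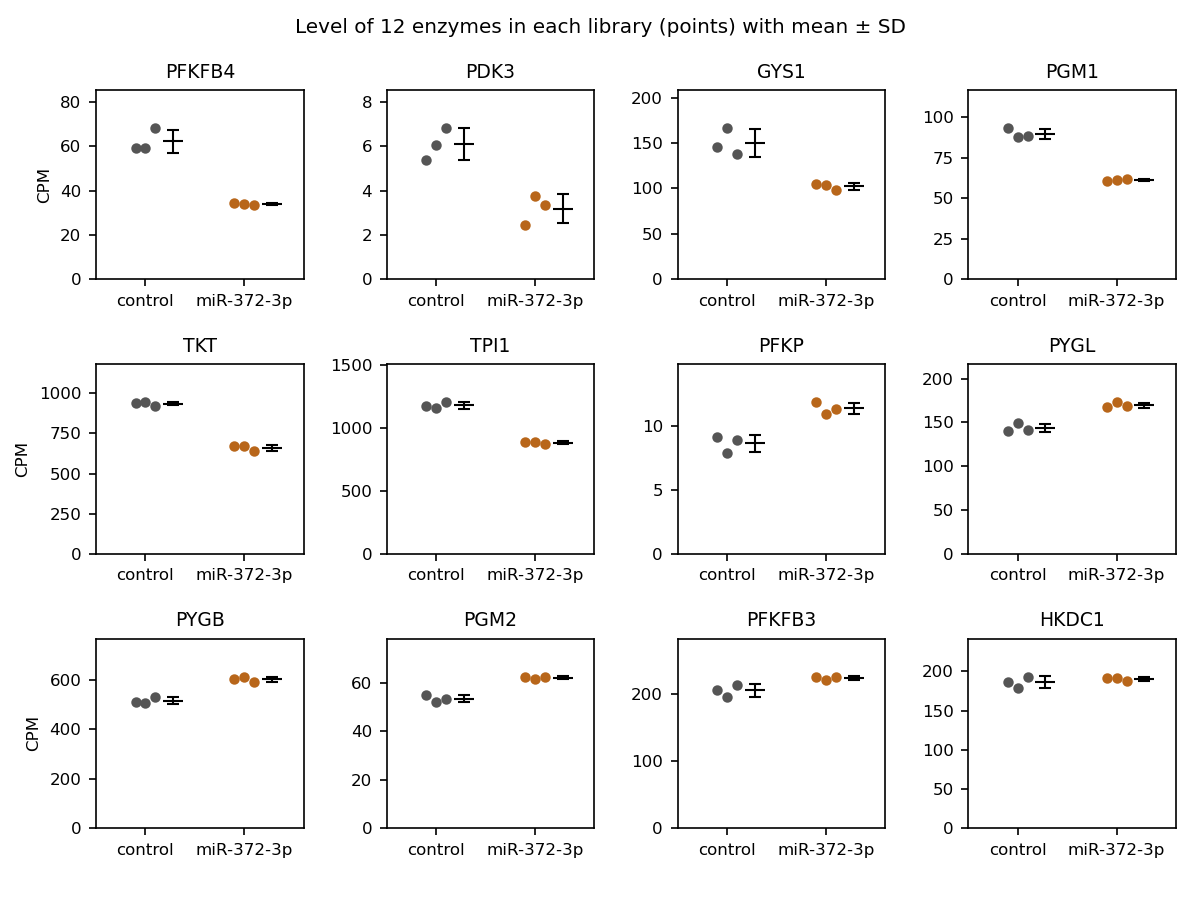
Level of 12 enzymes in CPM (TMM-scaled), 1 panel an enzyme and 1 point a library, grey for the 3 control and orange for the 3 miR-372-3p libraries, with the mean ± SD beside them. PFKFB4, PDK3, GYS1, PGM1, TKT and TPI1 lie below the controls in every miR-372-3p library, PFKP, PYGL, PYGB, PGM2 and PFKFB3 lie above them, and HKDC1 overlaps.

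In lower glycolysis all 6 enzymes passed, 4 lower and 2 higher. GAPDH, the oxidising step and the most abundant member, stood at 7331, 7662 and 7010.3 CPM in the control libraries and 5704, 5807 and 5512 CPM in the miR-372-3p libraries. The highest miR-372-3p value lay below the lowest control value (log2 fold change −0.37 ± 0.0393, edgeR adjusted p = 3.70e-05). PGK1 (chrX:77910739-78129296), which makes the first ATP of the pathway from the product of GAPDH, went the other way. It stood at 517, 498 and 602 CPM in the control libraries and 635, 616 and 644 CPM in the miR-372-3p libraries, on 24261, 23201 and 29243 reads in control and 38049, 31124 and 36094 with miR-372-3p. The groups did not overlap, but control 3 lay close to the miR-372-3p libraries (log2 fold change 0.23 ± 0.0637, edgeR adjusted p = 0.0123). Without control 1 the edgeR adjusted p for PGK1 was 0.0535. An exon of ATP7A, which fell by 0.60 on the log2 scale, overlaps PGK1 on the same strand. PGAM1, the mutase of the next step, rose by 0.12 ± 0.0411 on the log2 scale (edgeR adjusted p = 0.0329), and its call was lost on leaving out any 1 library but control 3, with adjusted p up to 0.137.

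ENO1, ENO2 and PKM, the last steps of glycolysis, fell. ENO1, the main enolase, stood at 4233, 4046 and 4458 CPM in the control libraries and 3495, 3464 and 3401 CPM in the miR-372-3p libraries, on 198735, 188500 and 216465 reads in control and 209597, 175101 and 190592 with miR-372-3p. The fall was 1.23-fold (log2 fold change −0.30 ± 0.0393, edgeR adjusted p = 0.000154). ENO2, the enolase best known from neurons, fell less, from 167 ± 8.96 to 149.8 ± 0.575 CPM (log2 fold change −0.16 ± 0.0436, edgeR adjusted p = 0.0118). PKM encodes the pyruvate kinases of tissues other than liver and red cells, and its 2 splice forms are 1 row here. It went from 3255 ± 70.0 to 3007 ± 53.1 CPM (log2 fold change −0.11 ± 0.0323, edgeR adjusted p = 0.0131), and without control 1 or miR-372-3p 3 its edgeR adjusted p was 0.0603 or 0.0530. Several members have pseudogenes, 62 named after GAPDH, 13 after PGAM1, 6 after LDHA, 6 after RPE, 5 after PKM, 4 after ENO1 and 4 after TPI1 in GENCODE 29, and the assignment of reads shared with them was not given in the sources used here.

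Lactate dehydrogenase converts pyruvate to lactate and back. LDHA, its muscle-type subunit, stood at 1374, 1311 and 1437 CPM in the control libraries and 1239, 1232 and 1251 CPM in the miR-372-3p libraries and fell by 0.15 ± 0.0389 on the log2 scale (edgeR adjusted p = 0.00951). The log2 ratio of mean deposited FPKM was −0.0447. By FPKM the groups overlapped, with 615.6, 540.9 and 653.8 in control and 604.8, 549.7 and 600.6 with miR-372-3p. LDHB, the heart-type subunit and the larger part of the transcript per length, stood at 1078, 1005 and 1191 CPM in the control libraries and 1162, 1156 and 1157 CPM in the miR-372-3p libraries, on 50635, 46820 and 57816 reads in control and 69681, 58443 and 64850 with miR-372-3p. The miR-372-3p libraries lay within the range of the controls, and the difference did not pass (log2 fold change 0.09 ± 0.0547, edgeR adjusted p = 0.209; 95% interval −0.04 to 0.21). Without control 3 it was 0.15, with an edgeR adjusted p of 0.00285. Of the gluconeogenic enzymes, mitochondrial PCK2 (log2 fold change −0.15 ± 0.0690, edgeR adjusted p = 0.0991) and pyruvate carboxylase PC (log2 fold change 0.18 ± 0.0686, edgeR adjusted p = 0.0518) did not pass. PC passed under DESeq2 (adjusted p = 0.0479), and PCK2 without control 2 or miR-372-3p 2 (edgeR adjusted p = 0.0463 and 0.0482).

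Among the pentose phosphate enzymes 3 of 6 fell and 1 rose. TKT, transketolase, showed the largest difference of these 6: 940.4, 945 and 925 CPM in the control libraries and 674, 671 and 640.4 CPM in the miR-372-3p libraries. The libraries of each group lay close together and far from the other group, a 1.42-fold fall (log2 fold change −0.50 ± 0.0345, edgeR adjusted p = 2.00e-06). TALDO1, transaldolase, fell from 163 ± 10.3 to 140.4 ± 2.02 CPM (log2 fold change −0.21 ± 0.0478, edgeR adjusted p = 0.00393), and PGLS, the lactonase of the oxidative arm, fell from 49.1 ± 4.77 to 40.1 ± 1.80 CPM (log2 fold change −0.29 ± 0.0703, edgeR adjusted p = 0.00566). PGD, which releases the second NADPH, did not pass (log2 fold change −0.05 ± 0.0380, edgeR adjusted p = 0.263). RPE, the epimerase, rose by 0.18 ± 0.0626 on the log2 scale with groups that overlapped (edgeR adjusted p = 0.0372). That call was lost without control 1, control 2, miR-372-3p 1 or miR-372-3p 3, with adjusted p up to 0.128. RPIA, the isomerase, was at 21.2, 17.7 and 25.2 CPM in the control libraries and 26.2, 24.8 and 24.2 CPM in the miR-372-3p libraries and did not pass (log2 fold change 0.23 ± 0.111, edgeR adjusted p = 0.103). Its value was 0.37 without control 3, with an edgeR adjusted p of 0.00380.

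Of the 7 glycogen enzymes 3 fell, GYS1, GBE1 and PGM1, and 3 rose, PYGL, PYGB and PGM2. GYS1 (chr19:48968125-48993310), muscle-type glycogen synthase, stood at 146, 167 and 138 CPM in the control libraries and 105, 104 and 97.9 CPM in the miR-372-3p libraries, on 6837, 7767 and 6692 reads in control and 6316, 5244 and 5484 with miR-372-3p. All miR-372-3p libraries were lower, a 1.47-fold fall (log2 fold change −0.55 ± 0.0665, edgeR adjusted p = 8.48e-05). GBE1, the branching enzyme, went from 51.7 ± 3.22 to 43.8 ± 1.82 CPM (log2 fold change −0.24 ± 0.0572, edgeR adjusted p = 0.00560). UGP2, which makes the UDP-glucose that glycogen synthase uses, did not pass (log2 fold change 0.05 ± 0.0420, edgeR adjusted p = 0.319).

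Glycogen phosphorylase releases glucose phosphate from glycogen. Its liver form PYGL (chr14:50857891-50944736) stood at 140.2, 149 and 141 CPM in the control libraries and 168, 173 and 168 CPM in the miR-372-3p libraries, on 6582, 6932 and 6844 reads in control and 10047, 8745 and 9434 with miR-372-3p. Every miR-372-3p library lay above every control (log2 fold change 0.24 ± 0.0385, edgeR adjusted p = 0.000492). The brain form PYGB, which was the more abundant per length, stood at 512, 506 and 533 CPM in the control libraries and 604, 615 and 592 CPM in the miR-372-3p libraries, on 24019, 23562 and 25898 reads in control and 36241, 31068 and 33156 with miR-372-3p. It rose to a like degree (log2 fold change 0.22 ± 0.0356, edgeR adjusted p = 0.000513). The phosphoglucomutases PGM1, which connects glycogen with glycolysis, and PGM2 moved apart. PGM1 stood at 93.3, 87.6 and 88.1 CPM in the control libraries and 60.8, 61.3 and 61.7 CPM in the miR-372-3p libraries, on 4381, 4082 and 4279 reads in control and 3646, 3098 and 3460 with miR-372-3p, and fell 1.46-fold (log2 fold change −0.55 ± 0.0442, edgeR adjusted p = 5.63e-06), while PGM2, which acts mainly on pentose phosphates, rose from 53.6 ± 1.47 to 62.3 ± 0.576 CPM (log2 fold change 0.22 ± 0.0436, edgeR adjusted p = 0.00209). PGM1 overlaps ITGB3BP on the opposite strand, which also fell (log2 fold change −0.31 ± 0.0686). The strand setting behind the counts was not given in the sources used here, so the assignment of reads between PGM1 and ITGB3BP is uncertain.

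The pyruvate dehydrogenase kinases switch the complex off by phosphorylating its E1 alpha subunit. PDK3 (chrX:24465221-24541862) showed the lowest log2 fold change of the 40 members, at a low level: 5.39, 6.05 and 6.84 CPM in the control libraries and 2.45, 3.74 and 3.37 CPM in the miR-372-3p libraries, on 253, 282 and 332 reads in control and 147, 189 and 189 with miR-372-3p. The highest miR-372-3p library lay below the lowest control, and the 1.91-fold fall had a wide 95% interval of −1.34 to −0.53 on the log2 scale (log2 fold change −0.94 ± 0.181, edgeR adjusted p = 0.00165). PDK2, the main kinase by transcript, stood at 70.4, 72.7 and 60.6 CPM in the control libraries and 63.7, 69.5 and 63.8 CPM in the miR-372-3p libraries, on 3306, 3389 and 2942 reads in control and 3817, 3512 and 3578 with miR-372-3p. Its groups overlapped (log2 fold change −0.05 ± 0.0707, edgeR adjusted p = 0.586; 95% interval −0.21 to 0.11). PDK1 (log2 fold change −0.02 ± 0.0651, edgeR adjusted p = 0.853) and PDK4 (log2 fold change 0.17 ± 0.108, edgeR adjusted p = 0.218) did not pass either. PDHA1, the E1 alpha subunit that they act on, fell by 0.13 ± 0.0423 on the log2 scale (edgeR adjusted p = 0.0233). This call was lost without control 1, control 2, miR-372-3p 1 or miR-372-3p 3, with adjusted p up to 0.0904.

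Isozyme shares, taken from deposited FPKM because these are per length, show where the make-up of a gene family differed. They were tested for the leading isozyme of 9 families by a two-sided exact permutation test, which cannot go below p = 0.1 with 3 libraries against 3. The largest shift of the 9 was between PGM1 and PGM2, which differ in their main substrate, so their shares do not describe a single step. Of their summed FPKM, PGM1 made up 68.9, 68.8 and 68.4% in the control libraries and 55.5, 56.5 and 56.3% in the miR-372-3p libraries. The groups were far apart (a difference of −12.6 percentage points, exact p = 0.1, adjusted over 9 families 0.18). In the PFKFB family, PFKFB3 made up 69.0, 68.6 and 65.1% in the control libraries and 77.5, 77.2 and 78.6% in the miR-372-3p libraries. That is 10.2 points higher with miR-372-3p (exact p = 0.1, adjusted 0.18), while PFKFB4 went from 25.8% ± 2.04 to 15.0% ± 0.714.

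Other families differed less in their make-up. HKDC1 made up 87.5% ± 0.424 of the summed FPKM of HK2 and HKDC1 in control and 87.3% ± 0.269 with miR-372-3p (exact p = 0.5, adjusted 0.643). HK1 is not part of this sum, so it is not a share of all hexokinase. PYGB made up 71.6% ± 0.918 and 71.45% ± 0.264 of phosphorylase (exact p = 0.9), although both isozymes rose. PFKL made up 54.9% ± 1.75 and 53.8% ± 0.981 of PFK (exact p = 0.3, adjusted 0.45), and PFKP went from 4.26% ± 0.143 to 6.90% ± 0.198 without overlap. LDHB made up 55.2% ± 0.720 and 57.5% ± 1.02 of lactate dehydrogenase (exact p = 0.1, adjusted 0.18). ALDOA, at 94.7% and 95.4% of aldolase, and ENO1, at 97.3% and 97.1% of enolase, kept nearly all of their families with groups that did not overlap (exact p = 0.1 for each, adjusted 0.18). PDK2 made up 68.4% ± 2.24 and 67.98% ± 2.47 of kinase FPKM (exact p = 0.7, adjusted 0.788), and PDK3 7.47% ± 0.798 and 4.295% ± 1.01.

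**Figure D3:**
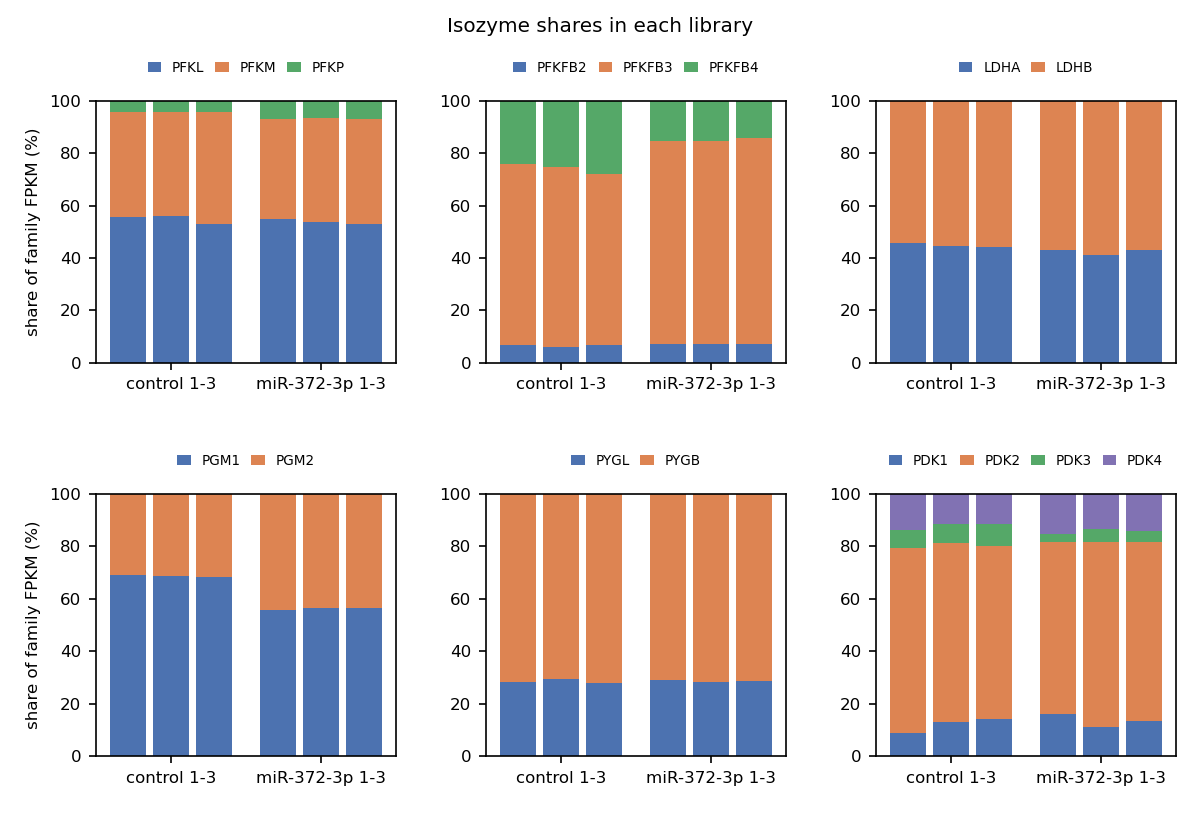
Share of each isozyme in the summed deposited FPKM of its family, in percent, for 6 families; 1 stacked bar is 1 library, the 3 control libraries on the left and the 3 miR-372-3p libraries on the right. The PGM1 share is 12.6 points lower and the PFKFB4 share 10.8 points lower with miR-372-3p, and the phosphorylase bars overlap.

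The most abundant enzymes were mostly among those that fell. Of the 10 members with the highest control FPKM (220.1 to 3806), 8 fell, PGAM1 rose and LDHB did not pass, with a median log2 fold change of −0.22. Among all 222 genes at or above that level, 31.5% fell and 19.8% rose, with a median of −0.025. Of the other 30 members 12 fell and 7 rose, with a median of −0.032. The plot of level against change shows that low members held both ends of the range, PDK3 and PFKP.

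**Figure D4:**
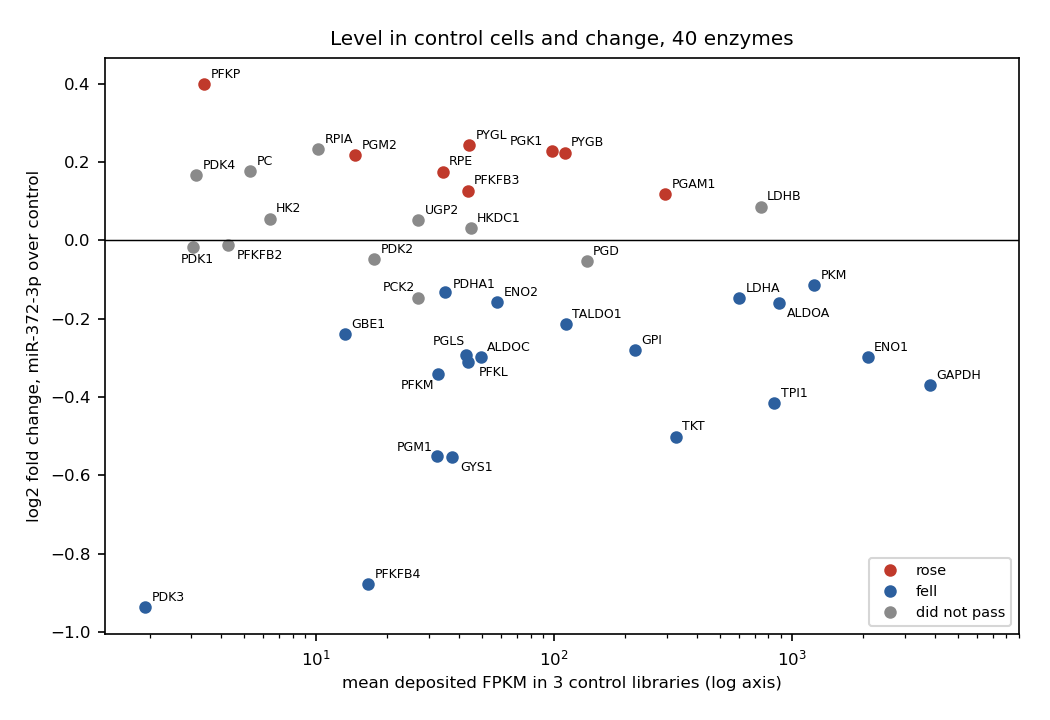
Log2 fold change, miR-372-3p over control, against the mean deposited FPKM of the 3 control libraries (log axis) for each of the 40 enzymes. GAPDH, ENO1, PKM, ALDOA, TPI1 and LDHA, all abundant, lie below 0, and the lowest and highest points, PDK3 and PFKP, are of low abundance.

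Outside the 40 enzymes, further genes of the same pathways were listed, of which 68 had a row. Of these 21 rose (30.9%), 19 fell (27.9%) and 28 did not pass. Among all genes tested 26.8% rose and 27.7% fell, so these shares were close to those of all genes. The counts by list below are to be read beside the shares of all genes. In sugar and monocarboxylate transport 4 of 13 rose and 4 fell. SLC2A1, the main glucose carrier of tumour cells, went from 255 ± 5.70 to 264 ± 3.69 CPM and did not pass (log2 fold change 0.05 ± 0.0346, edgeR adjusted p = 0.250). SLC16A3, a lactate exporter, rose from 5.16 ± 1.17 to 9.64 ± 0.453 CPM (log2 fold change 0.90 ± 0.151, edgeR adjusted p = 0.000720), and SLC2A12, a glucose carrier, rose from 2.48 ± 0.423 to 4.58 ± 0.244 CPM (log2 fold change 0.88 ± 0.168, edgeR adjusted p = 0.00150). The mitochondrial pyruvate carrier subunit MPC1 fell from 3.62 ± 0.279 to 2.05 ± 0.519 CPM (log2 fold change −0.82 ± 0.204, edgeR adjusted p = 0.00688), and the inositol carrier SLC2A13 fell from 8.51 ± 0.164 to 5.14 ± 0.865 CPM (log2 fold change −0.73 ± 0.133, edgeR adjusted p = 0.00120).

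Among other enzymes of glycolysis and gluconeogenesis 3 of 10 rose and 2 fell. BPGM, which makes bisphosphoglycerate, fell by 0.53 ± 0.0648 on the log2 scale (edgeR adjusted p = 8.84e-05), and G6PC3, a widely expressed glucose phosphatase, fell by 0.51 ± 0.0394 (edgeR adjusted p = 4.49e-06). ENO3, the muscle enolase, rose from 4.56 ± 0.308 to 6.37 ± 0.268 CPM (log2 fold change 0.48 ± 0.119, edgeR adjusted p = 0.00682), and ADPGK, an ADP-dependent glucokinase, rose by 0.19 ± 0.0685 (edgeR adjusted p = 0.0375). The call for ADPGK was lost without control 1, control 2, miR-372-3p 1 or miR-372-3p 3, with adjusted p up to 0.142. Of 8 other pentose phosphate and ribose genes 3 fell and 0 rose. RBKS, ribokinase, fell by 0.82 ± 0.106 on the log2 scale (edgeR adjusted p = 0.000137), and SHPK, sedoheptulokinase, by 0.44 ± 0.0748 (edgeR adjusted p = 0.000765).

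Of 18 other glycogen genes 7 rose and 5 fell. GYG1, the glycogenin that primes synthesis, rose (log2 fold change 0.21 ± 0.0559, edgeR adjusted p = 0.00973). PHKA1 (log2 fold change −0.56 ± 0.104, edgeR adjusted p = 0.00137) and PHKB (log2 fold change −0.23 ± 0.0544, edgeR adjusted p = 0.00492), subunits of the kinase that activates phosphorylase, fell. PHKA2, another subunit, rose (log2 fold change 0.18 ± 0.0685, edgeR adjusted p = 0.0491), a call lost with the replicate block, upper-quartile factors, a 5 CPM minimum or without control 1, control 3, miR-372-3p 1 or miR-372-3p 3, with adjusted p up to 0.196. Of the 6 measured subunits that bring protein phosphatase to glycogen 3 rose, 2 fell and PPP1R3G did not pass. PPP1R3B, the liver subunit, rose from 12.9 ± 1.13 to 20.6 ± 0.429 CPM (log2 fold change 0.68 ± 0.0794, edgeR adjusted p = 7.04e-05), and PPP1R3C and PPP1R3D rose by 0.43 and 0.52 on the log2 scale (edgeR adjusted p = 0.000837 and 0.00243). PPP1R3E fell from 7.40 ± 0.246 to 4.03 ± 0.211 CPM (log2 fold change −0.88 ± 0.115, edgeR adjusted p = 0.000146), as did PPP1R3F (log2 fold change −0.79 ± 0.196, edgeR adjusted p = 0.00698). STBD1, a glycogen-binding protein, fell (log2 fold change −1.54 ± 0.425, edgeR adjusted p = 0.0117), but control 2 stood at 20.8 CPM against 8.31 and 5.40 CPM in the other controls. Without control 2 the value was −0.79, with an edgeR adjusted p of 0.0181. In the rest of the pyruvate dehydrogenase complex 3 of 7 rose and 1 fell. The phosphatases PDP1 (log2 fold change 0.39 ± 0.0891, edgeR adjusted p = 0.00418) and PDP2 (log2 fold change 0.34 ± 0.0569, edgeR adjusted p = 0.000718) and the phosphatase subunit PDPR (log2 fold change 0.21 ± 0.0410, edgeR adjusted p = 0.00158), which reverse the action of the kinases, rose, and the E3-binding protein PDHX fell (log2 fold change −0.23 ± 0.0543, edgeR adjusted p = 0.00498).

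Of 12 regulators of transcription 4 rose and 4 fell. TXNIP, a brake on glucose uptake that responds to sugar through MLX partners, fell from 5.22 ± 0.465 to 2.66 ± 0.108 CPM (log2 fold change −0.97 ± 0.142, edgeR adjusted p = 0.000295). HIF1A, the oxygen-sensitive subunit of the hypoxia-inducible factor, fell from 754 ± 65.2 to 594 ± 10.5 CPM (log2 fold change −0.34 ± 0.0567, edgeR adjusted p = 0.000645). The other subunits of these factors on the list went the other way: EPAS1 rose from 354 ± 27.0 to 428 ± 1.14 CPM (log2 fold change 0.27 ± 0.0514, edgeR adjusted p = 0.00144) and ARNT rose from 34.0 ± 3.60 to 41.3 ± 1.83 CPM (log2 fold change 0.28 ± 0.0752, edgeR adjusted p = 0.0102). USF2, a factor that binds E-boxes, fell from 137 ± 11.5 to 99.6 ± 5.58 CPM (log2 fold change −0.47 ± 0.0640, edgeR adjusted p = 0.000202). ESRRA, a nuclear receptor for genes of energy metabolism, rose by 0.30 ± 0.104 on the log2 scale (edgeR adjusted p = 0.0318). The call for ESRRA was lost on leaving out control 1 or any 1 miR-372-3p library, with adjusted p up to 0.0784, and without control 2 the value was 0.19. The plot of the other pathway genes shows each list.

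**Figure D5:**
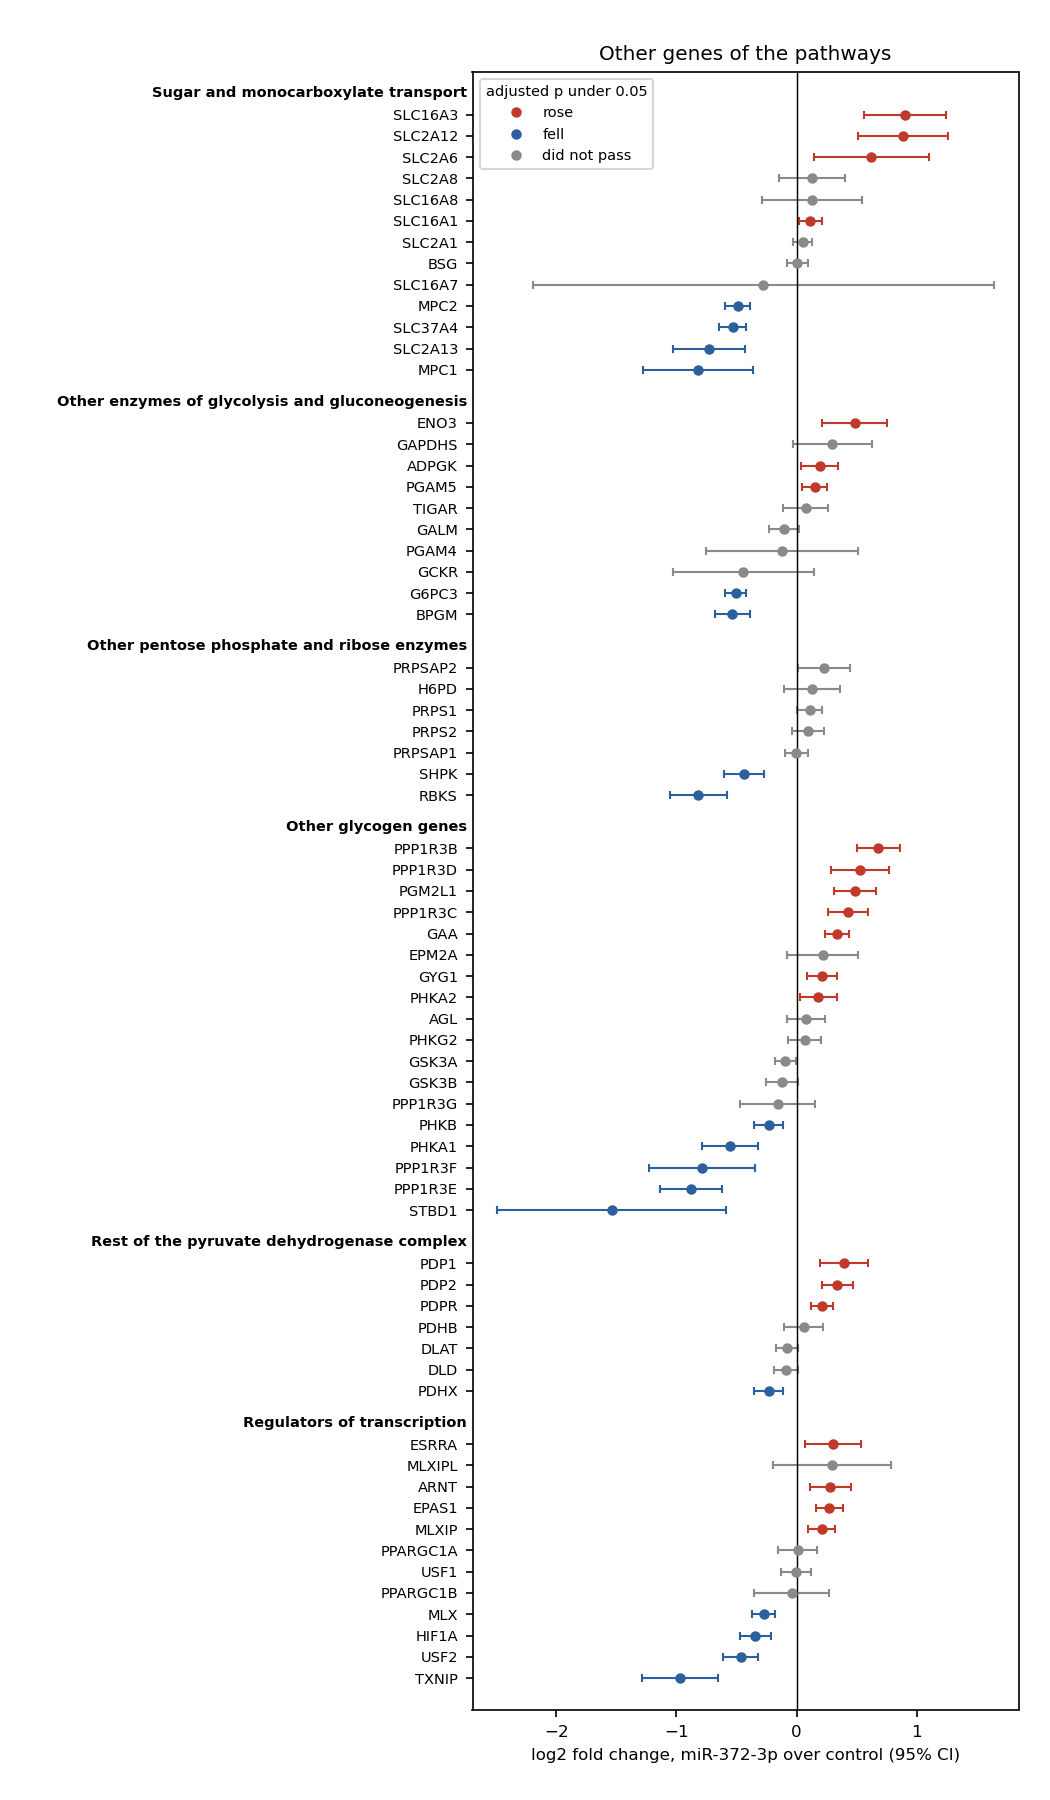
Log2 fold change, miR-372-3p over control, with the 95% confidence interval of the edgeR fit, for other genes of the pathways, by list. Red points rose, blue points fell and grey points did not pass; SLC16A7 has the widest interval, since 1 library of each group had counts far above the others.

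Promoters were read because the members of these pathways moved both ways. The searched letters were ACGTG, the core bound by hypoxia-inducible factors, and CACGTG, an E-box bound by USF and MYC family proteins and similar to the sequences used by ChREBP, each on both strands; every CACGTG also holds ACGTG. In RefSeq's promoters of GRCh38.p14, 300 bases from 250 before to 50 after the start, 39 of 40 members were matched. Matching was by Ensembl gene ID, or by symbol where that failed. ACGTG was in 14 of 39 (35.9%), against 26.1% of 9854 tested genes with a promoter and 21.4% of all 35116 promoters. It was in 8 of 20 members that fell and 3 of 8 that rose. CACGTG was in 5 of 39 (12.8%), against 9.83% and 7.26%. Shown are a pair of members that fell, GAPDH at chr12:6535014-6535313 (+ strand) and TPI1 at chr12:6867855-6868154 (+ strand), and a pair that rose, PGK1 at chrX:78103998-78104297 (+ strand) and PGM2 at chr4:37826436-37826735 (+ strand), since these letters were present in both. ACGTG and its reverse complement are in capitals:

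GAPDH: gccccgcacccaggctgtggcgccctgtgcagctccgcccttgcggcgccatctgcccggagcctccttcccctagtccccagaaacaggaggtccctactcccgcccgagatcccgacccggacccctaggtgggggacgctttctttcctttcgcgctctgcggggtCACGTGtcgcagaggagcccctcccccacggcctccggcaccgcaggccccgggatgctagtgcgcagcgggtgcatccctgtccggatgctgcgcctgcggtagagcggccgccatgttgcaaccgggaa
TPI1: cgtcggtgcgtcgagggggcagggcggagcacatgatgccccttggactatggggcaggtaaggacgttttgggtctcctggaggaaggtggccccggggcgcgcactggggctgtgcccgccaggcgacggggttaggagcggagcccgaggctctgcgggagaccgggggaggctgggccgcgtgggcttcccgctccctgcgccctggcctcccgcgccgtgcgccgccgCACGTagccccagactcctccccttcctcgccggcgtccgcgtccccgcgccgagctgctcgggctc
PGK1: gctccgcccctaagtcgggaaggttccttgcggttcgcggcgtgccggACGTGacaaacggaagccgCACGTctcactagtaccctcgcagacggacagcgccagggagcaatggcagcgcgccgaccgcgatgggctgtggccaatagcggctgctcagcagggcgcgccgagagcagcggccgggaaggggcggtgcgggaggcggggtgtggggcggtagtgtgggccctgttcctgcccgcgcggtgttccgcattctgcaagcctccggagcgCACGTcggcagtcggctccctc
PGM2: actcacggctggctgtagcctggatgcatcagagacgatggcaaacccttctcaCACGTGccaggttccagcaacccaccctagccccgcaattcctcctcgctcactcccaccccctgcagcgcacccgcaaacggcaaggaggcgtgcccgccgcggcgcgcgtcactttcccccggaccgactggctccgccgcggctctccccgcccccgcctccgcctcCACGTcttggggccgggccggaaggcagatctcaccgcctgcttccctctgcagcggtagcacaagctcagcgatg

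In these windows GAPDH and PGM2 hold the E-box and TPI1 and PGK1 do not. The windows of GAPDH, TPI1 and PGK1 lie inside the genes as GENCODE 29 places them. There these genes begin at chr12:6533927, chr12:6867119 and chrX:77910739. Other starts of a gene were not read, so the letters may differ at them. These matches are letters in a window, and binding of any factor was not measured. In the 150 bases nearest the start the shares of members were 17.9% for ACGTG and 2.56% for CACGTG, against 15.2% and 6.06% of tested genes.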

How the data were processed

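RNA from 3 control and 3 miR-372-3p libraries of JHH-4 cells was sequenced after library preparation with a NEBNext Ultra kit, per the labels' protocols. Per the file headers, the deposited values are counts and FPKM in each library, with the authors' p-value and log2 fold change. The build is GRCh38, and the tools are DESeq2 1.38.3, StringTie 2.2.1 and HISAT2 2.0.4, per the submitters' processing notes. Their roles, the annotation and the counting rules were not given in the sources used here. In all the table holds 14006 rows, of which 1610 name no gene (2.64 to 3.63% of counts) and were left out. The 12396 named genes were tested with edgeR 4.0.16 (TMM scaling, quasi-likelihood F-test, R 4.3.3), with p-values adjusted over all of them by Benjamini-Hochberg and a threshold of 0.05. CPM are TMM-scaled, ± after a level is the SD over 3 libraries and ± after a log2 fold change is its standard error. The authors' deposited table gave log2 fold changes within 0.00196 of these for every member. On simulated counts of the 12396 genes, with only a small part of them changed, the test recovered 56.0% of genes changed 1.25-fold. It recovered 94.0% of those changed 2-fold and made 11 false calls. In the data 54.5% of genes passed, so the adjustment acts differently there, and these shares do not carry over to the data.

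Genes given in full were, by log2 fold change, the top 3 and bottom 3 called members, the leading isozyme of each family, and up to 4 called genes of each other list; other genes named beside these were chosen after their values were seen. The members, the lists and this rule were chosen with earlier results of these data known, so no p-value over a list is given. Seed matches were sought in the 3′ UTRs of GENCODE 29, of 50 bases or more. A few items counted in the lists are not reported here by name or sequence. Alternatives were DESeq2 1.42.0, RLE and upper-quartile scaling, a minimum of 5 CPM, no filter, rows without a gene kept, a replicate block, and leaving out each library.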

Additional observations from a re-analysis of the deposited data

How the results depend on the processing

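No called member changed sign under any of the 13 alternatives to the count test, and 22 of the 28 called members kept their call in every alternative that gave a value; PDK3 gave none at a minimum of 5 CPM. The 6 others, PFKFB3, PGK1, PGAM1, PKM, RPE and PDHA1, lost it only when 1 library was left out. Members that rose then numbered 4 to 11, and the median of all members ran from −0.135 to −0.0929. By list, the counts when 1 library was left out were 1 to 2 rises in upper glycolysis, 0 to 2 in lower glycolysis, 0 to 1 in lactate dehydrogenase, 0 to 2 in the pentose phosphate pathway, 2 to 4 in transport, 1 to 3 among other glycolytic enzymes and 0 to 1 among other pentose phosphate genes. Gluconeogenesis had 0 to 1 rises and 0 to 1 falls, and falls were 1 to 2 in pyruvate dehydrogenase and its kinases and 1 to 2 in the rest of that complex. RLE scaling, DESeq2 and keeping rows without a gene each gave 1 rise in gluconeogenesis (PC), and DESeq2 gave 1 among other pentose phosphate genes. With a minimum of 5 CPM, which tests fewer genes, transport had 2 rises and pyruvate dehydrogenase and its kinases 1 fall.

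Signs changed only among members that did not pass. With 1 library left out, PFKFB2 ran from −0.0726 to 0.0290, PDK1 from −0.0658 to 0.0212 and PDK2 from −0.126 to 0.00774 on the log2 scale. The difference in the share of PYGB ran from −0.653 to 0.218 percentage points and that of PDK2 from −1.66 to 0.811 when 1 library was left out, and that of PDK2 was 0.123 with CPM in place of FPKM. The shorter promoter window gave 17.9% for ACGTG and 2.56% for CACGTG. The causes were not tested.

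Libraries with the same number did not deviate together (correlations −0.136, −0.0517 and 0.103). A fit with the replicate number as a block gave 8 members that rose and 20 that fell, as without it, and lost 1 call, PHKA2 among other glycogen genes (0.18, edgeR adjusted p = 0.0548). Small changes are near the limit of what 3 libraries a group resolve. The replicates are called technical, so the spread between cultures is unknown.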

Other observations

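GAPDH, TPI1 and ENO2, which all fell, lie within 390 kb of each other on chromosome 12 (GRCh38, chr12:6533927-6923698). This stretch was looked at after its values were seen. It holds 17 other tested genes, of which 8 fell, 2 rose and 7 did not pass, with a median log2 fold change of −0.19. For all genes tested, 27.7% fell and 26.8% rose, with a median of 0.0013.

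SLC16A7, a monocarboxylate carrier, had 1 library in each group with counts far above the others. By counts it stood at 14.4 CPM in control 2 and 11.5 CPM in miR-372-3p 1, and between 1.6 and 2.29 CPM in the other 4 libraries. By deposited FPKM the 6 libraries lay between 0.698 and 1.19, control 2 at 1.19 and miR-372-3p 1 at 1.05.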
